A study of Mus musculus with 143 samples.

Results

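Hypoxia and glycolysis genes are described here as 36 genes, chosen by symbol, in tumours grown from 11 mouse cancer lines. All 36 symbols were found among the 54232 gene identifiers of the deposited table, and the 36 genes were followed in all 143 libraries. Their levels are FPKM, which count sequenced fragments per transcript length and library size, so levels of different genes are comparable per length. The symbol Aldoa is carried by a second identifier, which reached at most 3.802 FPKM in any library and was not used.

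Tumour cells were injected under the skin of the flank, and the RNA of whole tumours was sequenced. Mice with tumours received muDX400, a mouse antibody against PD-1, or a mouse IgG1 isotype antibody. Injections fell on days 11 and 15 of tumour growth, and day 19, called 8 days in the labels, was the day of removal. For each line there were 5 muDX400 libraries, 5 isotype libraries and 3 libraries of an untreated baseline arm, whose day of removal the labels leave out. The lines are known as models of these cancers: MC38 and CT26 (colon carcinoma), MBT2 and MB49 (bladder carcinoma), 4T1 and EMT6 (mammary carcinoma), LL2 and TC1 (lung), B16F10 and CM3 (melanoma) and RENCA (kidney). The labels class MC38 and MBT2 alike, as High responders to antibody against PD-1. The strain, sex and age of the mice, any gene change in them and tumour size were not given in the sources used here. Each line is a single transplanted tumour, so the models differ in tumour line and possibly in host at the same time. Replicates were taken as tumours of separate mice from their numbered titles. Nothing in the labels states this, so the p-values measure the spread between these samples, which may be technical.

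Cells short of oxygen stabilise HIF-1 alpha, the protein made from Hif1a, which with its partner binds short DNA sites called hypoxia response elements. Its targets take up glucose, run glycolysis to lactate, export the acid that results, remove mitochondria and modify collagen. Prolyl hydroxylases, among them the products of Egln1 and Egln3, mark HIF-1 alpha for destruction when oxygen is present, and both are themselves targets, so their transcripts rise when oxygen falls. Tumours often use glycolysis also with oxygen at hand, and activated T cells and macrophages turn to glycolysis too, so bulk tumour RNA mixes these sources. A lower level in bulk RNA cannot tell fewer cells of a type from less RNA per cell.

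The promoters of 6 genes are shown as examples. Slc2a1, Bnip3, Ankrd37 and P4ha2 fell with muDX400 in MC38, and Pfkfb3 and Pfkfb4 rose. Each run of 300 bases covers 250 bases before and 50 after a transcription start in RefSeq on build GRCm38.p6, written 5′ to 3′ on the strand of the gene. Capitals mark ACGTG and GCGTG, the core letters of the hypoxia response element, on either strand, where the other strand reads CACGT and CACGC. Overlapping matches are each counted, so CACGTG counts as 2. Slc2a1 (ENSMUSG00000028645) has its window at chr4:119108495-119108794 on the plus strand with 2 matches, and Bnip3 (ENSMUSG00000078566) at chr7:138909457-138909756 on the minus strand with 5. Ankrd37 (ENSMUSG00000050914) has 4 at chr8:45999801-46000100, minus strand, and P4ha2 (ENSMUSG00000018906) 4 at chr11:54100674-54100973, plus strand. Pfkfb3 (ENSMUSG00000026773) has 2 windows, and the window with more matches, 4, is at chr2:11502041-11502340, minus strand. Pfkfb4 (ENSMUSG00000025648) has 1 match at chr9:108991652-108991951, plus strand. Ddit4, Higd1a and Aldoc fell by more in MC38 than Bnip3 and P4ha2 but are not shown. Their windows hold at most 2, 3 and 3 matches.
Slc2a1: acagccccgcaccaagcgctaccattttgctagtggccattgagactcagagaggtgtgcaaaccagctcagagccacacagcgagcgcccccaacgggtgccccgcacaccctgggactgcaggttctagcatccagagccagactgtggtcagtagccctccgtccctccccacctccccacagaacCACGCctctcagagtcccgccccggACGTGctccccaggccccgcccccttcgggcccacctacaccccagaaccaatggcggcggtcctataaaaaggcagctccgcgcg
Bnip3: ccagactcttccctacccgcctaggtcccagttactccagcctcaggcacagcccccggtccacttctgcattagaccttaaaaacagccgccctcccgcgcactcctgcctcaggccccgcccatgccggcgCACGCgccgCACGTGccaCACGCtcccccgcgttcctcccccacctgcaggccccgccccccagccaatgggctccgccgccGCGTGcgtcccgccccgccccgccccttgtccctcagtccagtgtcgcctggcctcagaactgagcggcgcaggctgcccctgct
Ankrd37: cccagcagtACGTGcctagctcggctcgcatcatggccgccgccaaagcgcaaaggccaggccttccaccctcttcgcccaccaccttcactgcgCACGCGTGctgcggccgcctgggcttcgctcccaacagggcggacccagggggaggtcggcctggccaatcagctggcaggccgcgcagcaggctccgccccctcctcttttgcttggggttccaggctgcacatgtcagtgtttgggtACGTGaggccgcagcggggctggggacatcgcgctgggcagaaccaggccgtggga
P4ha2: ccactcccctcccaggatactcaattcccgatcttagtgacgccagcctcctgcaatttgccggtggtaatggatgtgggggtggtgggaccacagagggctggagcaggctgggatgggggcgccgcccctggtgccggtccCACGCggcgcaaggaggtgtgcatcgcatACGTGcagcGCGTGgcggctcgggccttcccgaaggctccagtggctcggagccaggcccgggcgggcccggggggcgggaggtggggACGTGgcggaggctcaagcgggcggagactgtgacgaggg
Pfkfb3: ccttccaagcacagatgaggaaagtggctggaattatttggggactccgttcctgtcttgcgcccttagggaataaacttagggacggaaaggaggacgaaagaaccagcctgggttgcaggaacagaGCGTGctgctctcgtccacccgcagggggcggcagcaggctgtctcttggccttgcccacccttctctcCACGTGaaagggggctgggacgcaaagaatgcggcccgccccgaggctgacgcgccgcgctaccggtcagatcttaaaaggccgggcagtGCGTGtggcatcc
Pfkfb4: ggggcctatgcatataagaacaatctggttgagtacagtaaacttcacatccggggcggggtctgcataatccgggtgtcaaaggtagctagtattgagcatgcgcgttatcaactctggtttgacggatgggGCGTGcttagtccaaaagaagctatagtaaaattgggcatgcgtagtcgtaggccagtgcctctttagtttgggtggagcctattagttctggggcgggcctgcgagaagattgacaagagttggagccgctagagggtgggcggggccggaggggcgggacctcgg

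Of the 36 genes, 34 had a window in the RefSeq table, and Bnip3l and Ndrg1 did not. Either core stood in 30 of the 34 (88.2%), against 46.7% of all 27025 genes with a window in the RefSeq table. A gene counted if any of its windows held a match, so genes with more windows had more chances. The number of windows was not matched. The 27025 genes had 32851 windows, of which 43.8% held either core. At least 2 matches stood in 24 (70.6%), against 22.9%, and ACGTG alone in 23 (67.6%), against 21.8%. The highest count was 7, in Ldha, and none stood in the windows of Car12, Eno2, Gpi1 and Tpi1. Base composition differed alongside, with a median GC content of 65.5% in the 34 genes and 53.3% in all genes, and its part in these shares was not tested. Of 18 nuclear genes for mitochondrial oxidation with a window, 13 (72.2%) held either core at a median GC content of 61.5%. A match is a run of letters and not a site known to be bound.

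Libraries held an estimated 10.7 M to 45.8 M fragments, with a median of 19.95 M fragments. The 36 genes took 0.835% to 5.98% of all FPKM in a library, with a median of 1.58%. The numbers in the sample descriptions fall in 4 blocks, what the blocks stand for is not given, and the muDX400 and isotype libraries of a model always share one. The baseline libraries of MC38 and MBT2 share a block, but their libraries at 8 days stand in different blocks, and only in B16F10 and RENCA do baseline and isotype libraries share one. Melanocyte markers summed to 5356 to 10369 FPKM in B16F10 and CM3 and to less than 7.3 in the other models. Some libraries stood apart. In CM3, isotype replicates 2 and 3 had FPKM totals of 784470 and 885330, the highest of the series. In MC38, muDX400 replicate 5 had T cell markers summing to 78.3 FPKM against 174 to 257 in the other 4, with skeletal muscle markers at 84.6 against 12.2 to 21.8, and isotype replicate 3 had erythroid markers at 1161 against 51.2 to 111 in the other isotype libraries. Values without these libraries are given where they change a result.

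The comparison of muDX400 with isotype tumours asks how transcripts differed 8 days after antibody treatment began. In MC38 most hypoxia and glycolysis genes were lower with muDX400. Pfkfb3 and Pfkfb4, the members for bifunctional enzymes that set the level of fructose 2,6-bisphosphate, were higher. Of the 36 genes, 14 fell and 2 rose, and 31 of the 36 differences were negative. Differences are on the log2(FPKM + 1) scale, where changes of low genes come out too small, and were tested with limma, 2-sided, with Benjamini-Hochberg adjustment over all genes tested and a threshold of 0.05. Of the 12775 genes tested in MC38, 12.7% fell and 14.6% rose. The median difference of the 36 genes was -0.35, against -0.06 over all genes tested. The groups did not overlap for 6 lower and 2 higher members, against 7.55% and 9.38% of all genes.

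By role, the glucose transporter, 5 of 15 glycolytic enzymes, 2 of 3 genes of oxygen sensing, 3 of 4 genes of mitochondrial removal and stress and 3 of 6 other hypoxia targets fell. None of 3 genes of lactate and pyruvate fate and neither of 2 carbonic anhydrases passed. Both flux regulators rose. Of the 5 enzymes, Pfkm and Aldoc also passed in each alternative fit run for MC38, while Pfkl, Pgk1 and Pgam1 did not pass without a filter on low values (adjusted p of 0.0700 to 0.114, limma) or with median-ratio scaling (0.0557 to 0.0687). The 12 members with the largest differences among the 16 that passed are given library by library, in replicate order, in the paragraphs that follow.

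Slc2a1 encodes GLUT1, the main glucose transporter of hypoxic cells. It stood at 275, 222, 326, 235 and 242 FPKM in isotype tumours of MC38 and at 135, 123, 138, 151 and 224 with muDX400. The fifth muDX400 tumour lay at the isotype level and the other 4 below every isotype tumour. The difference was -0.77 ± 0.16 (SE, adjusted p = 0.00696, limma). Aldoc encodes aldolase C, which splits fructose bisphosphate. Its level was 40.3, 32.0, 38.9, 29.9 and 26.5 FPKM with isotype and 21.1, 16.2, 20.2, 23.3 and 25.3 with muDX400, so the groups did not overlap (-0.63 ± 0.14, adjusted p = 0.00902, limma). Pgk1 encodes phosphoglycerate kinase, which makes ATP in glycolysis. Its isotype tumours held 1204, 956, 1446, 1006 and 1020 FPKM and its muDX400 tumours 822, 648, 738, 807 and 994. Again the fifth treated tumour fell among the isotype values, and the difference was -0.49 ± 0.15 (adjusted p = 0.0326, limma). Pfkl and Pfkm, subunits of phosphofructokinase, and Pgam1, a mutase, also fell, by 0.34 to 0.46.

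Pfkfb3 and Pfkfb4 encode enzymes that make and break fructose 2,6-bisphosphate, the activator of phosphofructokinase, and both are known hypoxia targets. Pfkfb3 in MC38 was at 15.6, 21.8, 11.3, 20.6 and 17.0 FPKM with isotype and at 37.9, 39.2, 36.6, 34.0 and 25.2 with muDX400. All treated tumours lay above all isotype tumours, and the fifth was the lowest of the treated (0.98 ± 0.17, adjusted p = 0.00292, limma). Pfkfb4 was at 6.09, 5.16, 5.32, 5.98 and 5.88 FPKM with isotype and at 9.63, 11.9, 11.1, 8.51 and 6.22 with muDX400. These groups did not overlap either, though the fifth treated tumour was close to the highest isotype tumour (0.62 ± 0.15, adjusted p = 0.0115, limma).

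Egln1 encodes PHD2, the main prolyl hydroxylase acting on HIF-1 alpha. In MC38 it was at 85.8, 78.2, 85.5, 80.4 and 75.8 FPKM with isotype and at 61.6, 45.3, 55.1, 57.9 and 75.9 with muDX400. The fifth treated tumour reached the isotype range and the other 4 did not (-0.47 ± 0.12, adjusted p = 0.0157, limma). Its relative Egln3 fell by 0.45, with 71.3, 56.5, 58.4, 70.3 and 90.4 FPKM in treated tumours against 85.1 to 104 with isotype. Hif1a itself was not called (0.25 ± 0.23, adjusted p = 0.445, limma). Its isotype libraries ranged from 26.3 FPKM in replicate 3 to 62.0 in replicate 2, and its treated libraries from 36.2 to 64.6.

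Bnip3 encodes a receptor on the mitochondrial surface that marks mitochondria for autophagy. Its level was 221, 212, 229, 208 and 193 FPKM in isotype tumours and 120, 124, 140, 158 and 204 with muDX400, the last of these inside the isotype range (-0.53 ± 0.14, adjusted p = 0.0157, limma). Higd1a encodes a small protein of the inner mitochondrial membrane. It was at 90.2, 70.8, 137, 80.6 and 68.1 FPKM with isotype and 44.3, 39.9, 47.7, 57.4 and 63.5 with muDX400, without overlap (-0.78 ± 0.19, adjusted p = 0.0129, limma). Ddit4 encodes REDD1, an inhibitor of mTOR complex 1 that responds to hypoxia and to glucocorticoids. It was at 212, 206, 171, 206 and 219 FPKM with isotype and 110, 78.1, 115, 134 and 160 with muDX400. These groups did not overlap, and isotype replicate 3 was the lowest isotype tumour by a wide gap (-0.79 ± 0.16, adjusted p = 0.00634, limma).

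Ndrg1 encodes a stress protein widely used as a hypoxia marker. In MC38 it stood at 223, 178, 223, 194 and 180 FPKM with isotype and 104, 94.6, 101, 114 and 154 with muDX400. All treated tumours were below all isotype tumours (-0.83 ± 0.13, adjusted p = 0.00185, limma). Ankrd37, a small ankyrin repeat gene and HIF target, was at 44.1, 33.5, 50.7, 34.5 and 33.4 FPKM with isotype and 18.3, 18.4, 21.8, 22.7 and 28.5 with muDX400, again without overlap (-0.81 ± 0.15, adjusted p = 0.00375, limma). P4ha2 encodes a subunit of the collagen prolyl hydroxylase. Its isotype levels were 232, 212, 232, 201 and 178 FPKM and its muDX400 levels 141, 131, 136, 154 and 195. The fifth treated tumour lay above the lowest isotype tumour (-0.49 ± 0.12, adjusted p = 0.0146, limma).

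The 20 members of MC38 that did not pass included Pkm, Gapdh and Ldha, the 3 most abundant in its isotype tumours. Gapdh differed by -0.48 ± 0.17 (adjusted p = 0.0541, limma) and Ldha, which encodes the lactate dehydrogenase subunit A, by -0.43 ± 0.16 (adjusted p = 0.0652, limma). Car9, the carbonic anhydrase most used as a hypoxia marker, differed by -0.39 ± 0.18 (adjusted p = 0.122, limma). Its treated tumours at 83.4, 66.6, 72.9, 91.1 and 116 FPKM overlapped isotype tumours at 126, 88.6, 157, 109 and 89.7. Pfkp, the platelet type of phosphofructokinase, was the closest of the positive differences to the threshold (0.27 ± 0.09, adjusted p = 0.0501, limma). Leaving out each library in turn gave 10 to 18 lower members, the most without muDX400 replicate 5. Of the 16 calls, 12 passed in every one of these 10 fits, and Pfkl, Pgk1, Pgam1 and Egln3 did not. With a spread shared by all models, Bnip3 (adjusted p = 0.103, limma), Egln3 (0.135) and Pfkl (0.0649) did not pass, while Car12 (0.00317), Ldha (0.00905), Eno1 (0.0376) and Gapdh (0.0493) passed as lower.

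**Figure D1:**
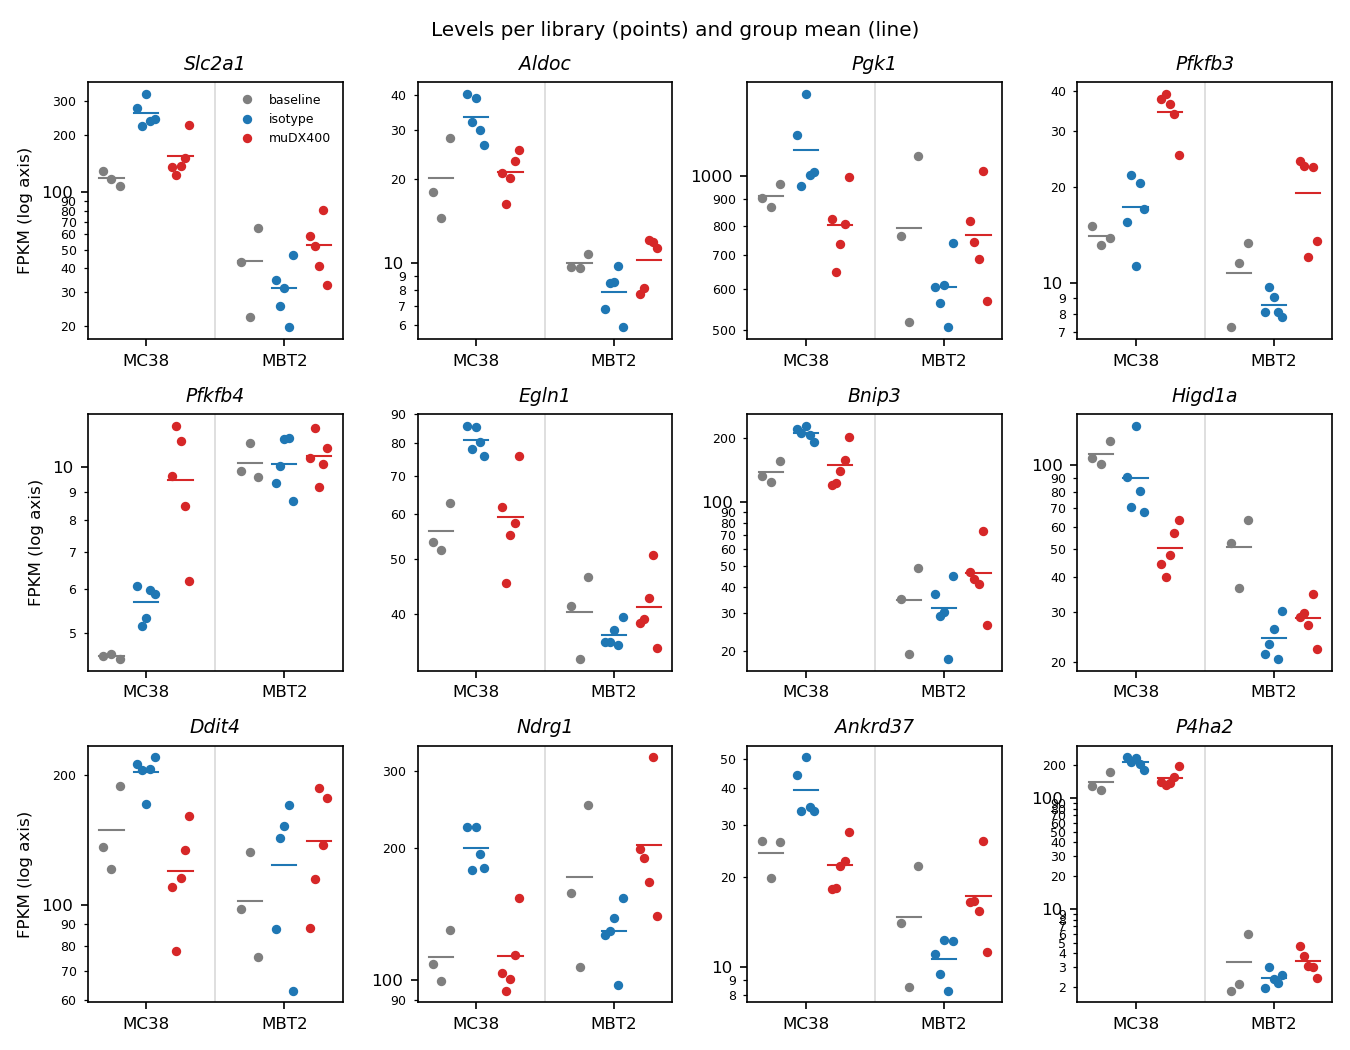
Level (FPKM, log axes that differ between panels) of the 12 members with the largest differences among those that passed in MC38, in each library of MC38 and MBT2. Points are libraries in replicate order, lines are group means, and in most MC38 panels the last muDX400 point lies nearest the isotype points, as in Slc2a1 at 224 FPKM against 123 to 151 in the other 4.

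MBT2 showed the opposite sign for most members, but no member and no gene of the 12541 tested passed the threshold in limma, and the background of calls was 0%. Of the 35 members tested, 33 were higher with muDX400 and 20 had an unadjusted p under 0.05, as had 3597 of all genes. The smallest adjusted p of any gene was 0.0510. The median difference of the members was 0.31, against -0.02 over all genes. Car12, at most 0.255 FPKM in either arm, did not reach the expression minimum. Arms did not overlap for 4 higher members, Hk1, Pfkp, Pfkfb3 and Car9, and for no lower one, against 2.77% and 3.52% of all genes.

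Pfkfb3 had the largest difference of the members in MBT2. It was at 8.09, 9.70, 9.02, 8.12 and 7.80 FPKM with isotype and at 24.1, 23.3, 12.1, 23.1 and 13.5 with muDX400 (1.03 ± 0.18, adjusted p = 0.0510, limma). Treated replicates 3 and 5 were lower than the other 3, yet above all isotype tumours. Pfkfb4, which rose in MC38, was at 9.33, 10.05, 11.2, 11.3 and 8.67 FPKM with isotype and at 10.4, 11.7, 9.18, 10.1 and 10.8 with muDX400 in MBT2 (0.05 ± 0.08, adjusted p = 0.748, limma).

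Slc2a1 in MBT2 was at 34.7, 25.3, 31.6, 19.6 and 46.7 FPKM with isotype and at 59.1, 52.1, 41.1, 80.2 and 32.7 with muDX400. Treated replicates 3 and 5 overlapped the isotype tumours and the other 3 lay above them (0.72 ± 0.25, adjusted p = 0.0996, limma). Slc16a3 encodes MCT4, the exporter of lactate, and was at 50.8, 38.5, 55.0, 29.9 and 58.1 FPKM with isotype and 92.7, 76.7, 51.5, 122 and 56.1 with muDX400 (0.74 ± 0.24, adjusted p = 0.0871, limma). Treated replicates 3 and 5 were again the lowest. Ndrg1 in MBT2 ran at 127, 130, 139, 97.7 and 154 FPKM with isotype and at 199, 190, 168, 321 and 140 with muDX400 (0.61 ± 0.19, adjusted p = 0.0799, limma). Ankrd37 was at 11.0, 9.41, 12.3, 8.28 and 12.2 FPKM with isotype and at 16.6, 16.7, 15.4, 26.5 and 11.2 with muDX400 (0.61 ± 0.18, adjusted p = 0.0699, limma). Bnip3 was at 37.0, 29.3, 30.3, 18.3 and 44.8 FPKM with isotype and at 47.1, 43.3, 41.4, 73.5 and 26.4 with muDX400 (0.51 ± 0.27, adjusted p = 0.226, limma). In these 5 genes the fourth treated tumour was the highest and replicate 5 overlapped the isotype tumours. Without muDX400 replicate 3, 11 members passed as higher, and without replicate 5, 8 did.

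**Figure D2:**
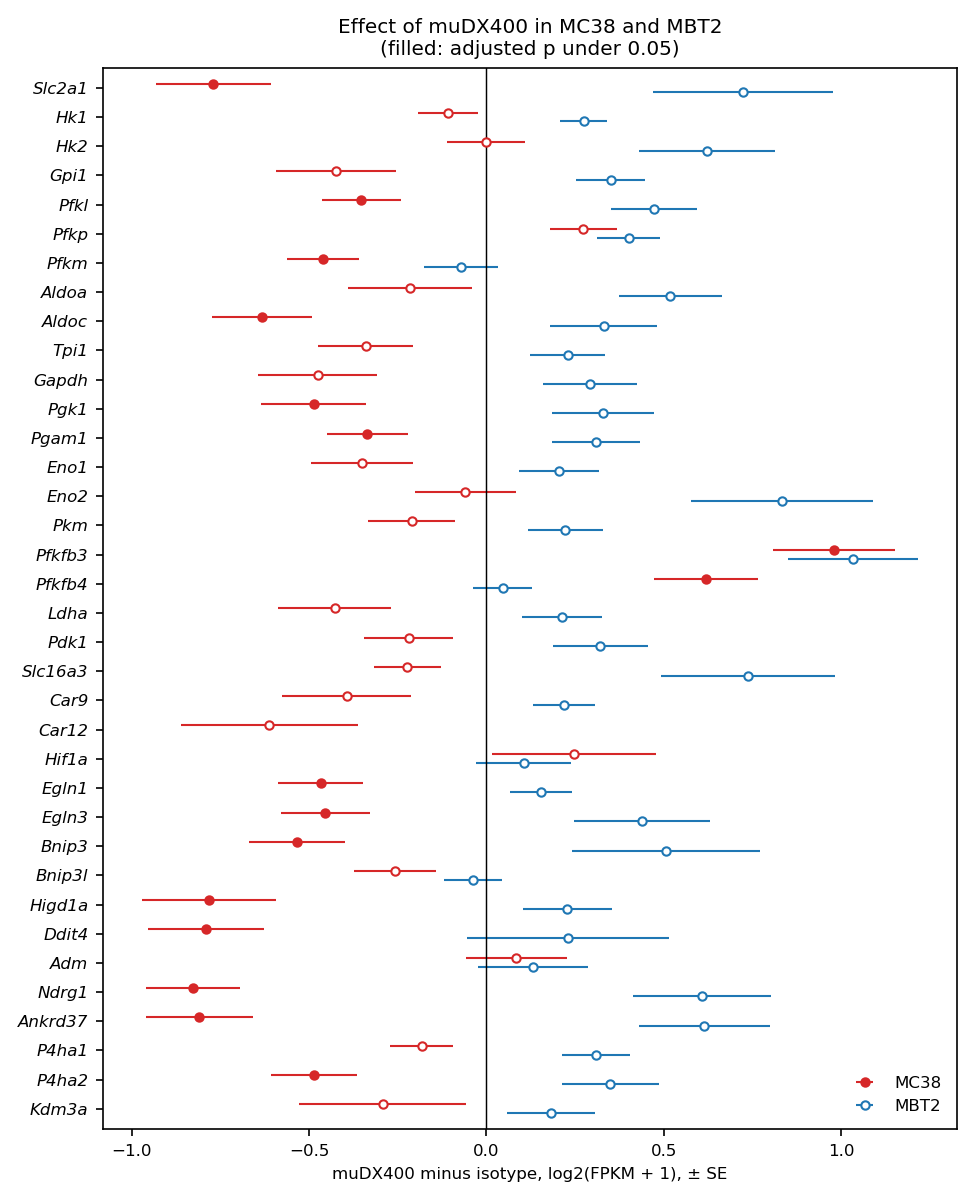
Difference between muDX400 and isotype tumours (log2(FPKM + 1), point and SE) for the 36 genes in MC38 and MBT2, ordered by role. Filled points passed an adjusted p of 0.05, which 16 members did in MC38 and 0 of 35 in MBT2. The MC38 points lie mostly left of 0 and the MBT2 points mostly right of it, while Pfkfb3 is near 1 in both.

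The difference of the 2 effects was tested directly, as the muDX400 effect in MC38 minus that in MBT2 over 20 libraries. It was negative for 34 of 36 members, with a median of -0.64 against -0.02 over all 13755 genes. Past the threshold, 17 members were lower and 1, Pfkfb4, was higher, where 3.22% of all genes were lower and 4.45% higher. The largest were Slc2a1 (-1.49 ± 0.32, adjusted p = 0.0140, limma), Ndrg1 (-1.43 ± 0.25, adjusted p = 0.00737, limma) and Ankrd37 (-1.42 ± 0.25, adjusted p = 0.00737, limma). Bnip3, Higd1a, Aldoc, Slc16a3, Egln3, P4ha2, Pfkl, Pgk1, Gpi1, Gapdh, Pgam1, Egln1, P4ha1 and Hk1 followed, from -1.04 to -0.38. Among them were 7 of 15 glycolytic enzymes. Slc16a3, Gapdh, Gpi1, P4ha1 and Hk1 had passed in neither model alone. The difference of Pfkfb4 was positive (0.57 ± 0.17, adjusted p = 0.0473, limma) and was lost without a filter on low values, with median-ratio scaling and in 16 of 20 fits with a library left out. For Pfkfb3 the difference was smaller than its error (-0.05 ± 0.27, adjusted p = 0.914, limma). The count of lower members was 27 without MC38 muDX400 replicate 5. It was 8 without MC38 muDX400 replicate 2 or 3 or MC38 isotype replicate 1, 9 without MBT2 isotype replicate 2 or 4 or MBT2 muDX400 replicate 4, and 8 without a filter. Slc2a1, Pfkl, Aldoc, Egln1, Ndrg1, Ankrd37, P4ha2 and Higd1a passed in each of the 20 fits with a library left out.

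Markers of other cell types moved alongside. In MC38 all 10 T cell markers rose (median 2.37) with sums of 14.2 to 32.7 FPKM in isotype and 78.3 to 257 in muDX400 tumours. Cd8a, the CD8 coreceptor of cytotoxic T cells, rose by 2.72 ± 0.32 (adjusted p = 0.000930, limma). All 8 macrophage markers rose (median 1.34, summed 644 to 1008 against 1210 to 2513 FPKM). Of 7 tested endothelial markers 6 rose (median 0.94), with sums of 36.1 to 45.5 against 39.1 to 145 FPKM. Of the marker genes, 3 of 8 for fibroblasts, 4 of 5 for adipocytes, 1 of 5 for epithelial cells and 1 of 3 for neutrophils rose, and 1 neutrophil marker fell. None of 4 erythroid or 2 skeletal muscle markers passed, and each of 5 melanocyte markers was under 1 FPKM, with Tyrp1 at 0. Proliferation genes fell in 7 of 12 (median -0.36, sums of 844 to 946 FPKM in isotype and 626 to 766 in muDX400 tumours), while Mki67, a marker of cycling cells, did not pass (-0.38 ± 0.37, adjusted p = 0.460, limma). The part of these shifts in the lower levels of the 36 genes was not tested.

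In MBT2 no marker passed. Median differences were 0.82 for T cell, 0.24 for macrophage, -0.07 for endothelial, 0.28 for fibroblast, 0.68 for neutrophil, 0.48 for adipocyte, -0.36 for erythroid, -1.22 for skeletal muscle, -0.07 for epithelial and -0.41 for proliferation genes. T cell markers summed to 98.8 to 128 FPKM with isotype and 132 to 266 with muDX400. Proliferation genes summed to 698 to 902 and 497 to 695 FPKM. Cd8a differed by 0.84 ± 0.33 (adjusted p = 0.128, limma) and Mki67 by -0.72 ± 0.19 (adjusted p = 0.0553, limma). The medians of T cell and macrophage markers were positive and those of proliferation genes negative in both models. The median of the 36 genes had opposite signs in the 2 models. That of endothelial markers was positive in MC38 and -0.07 in MBT2, where the median of all genes was -0.02. Signs of the other lists were not compared. Mlana and Tyrp1 were at 0 in all MBT2 libraries at 8 days. The part of any of these in the values of the 36 genes was not tested. The effect on Cd8a was larger in MC38 (difference of effects 1.87 ± 0.50, adjusted p = 0.0294, limma).

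The treated libraries with the least and the most T cell marker RNA stood in opposite order in the 2 models, given here as values with no test. In MC38 the treated library with the least T cell marker RNA, replicate 5 at 78.3 FPKM, had the highest mean level of the 36 genes, 6.65, and replicate 2, with the most at 257, had the lowest, 6.26. Isotype tumours of MC38 lay between 6.61 and 6.79. In MBT2 treated replicate 5, at 132 FPKM of T cell markers, had the lowest mean level, 5.36, and replicate 4, with the most at 266, had the highest, 5.97. Isotype tumours of MBT2 lay between 5.14 and 5.42. Erythroid markers were at 733 and 678 FPKM in MBT2 treated replicates 3 and 5 and at 154 to 300 in the other 3, so those libraries differ in more than T cell markers. MC38 treated replicate 5 also differed in skeletal muscle markers, as given above.

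**Figure D3:**
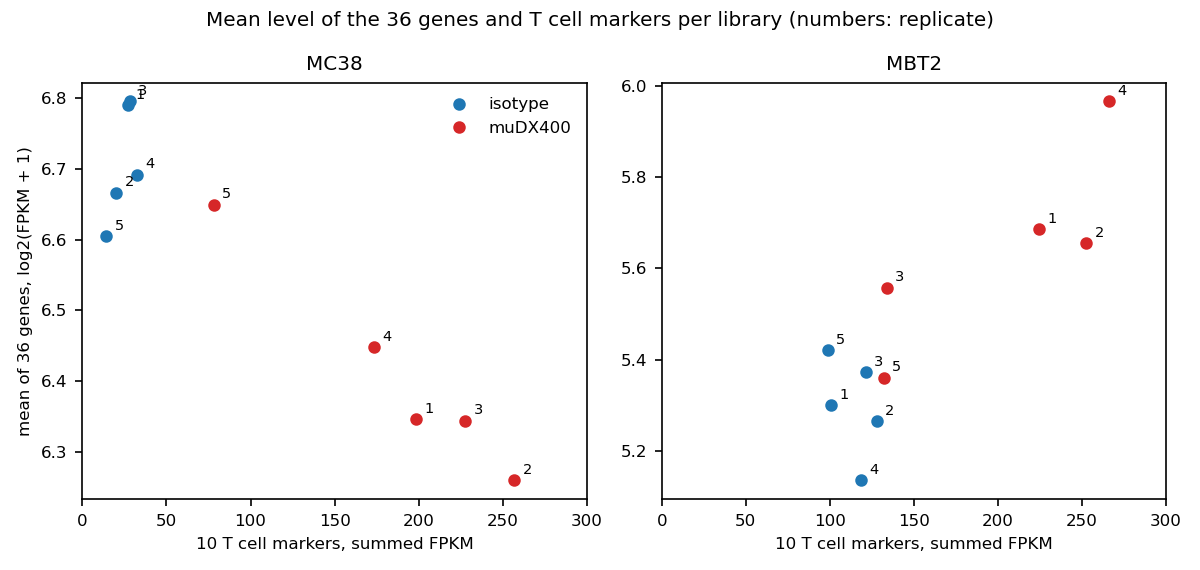
Mean level of the 36 genes (log2(FPKM + 1), y axes that differ between panels) against the summed FPKM of 10 T cell markers, for isotype and muDX400 libraries of MC38 and MBT2, each labelled with its replicate number. In MC38 treated replicate 5 (78.3 and 6.65) lies nearest the isotype libraries. In MBT2 treated replicates 3 and 5 do, while replicate 4 (266 and 5.97) lies farthest from them.

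Other genes of the same biology were taken from 3 lists. Of 27 tested hypoxia-inducible genes outside the 36, 8 fell and 3 rose with muDX400 in MC38 (median -0.26). The largest were rises, in Loxl2, a collagen cross-linking oxidase (1.69 ± 0.35), Pdgfb, a growth factor for pericytes (1.14 ± 0.20), and Angptl4, a secreted lipase inhibitor (1.06 ± 0.35). Vegfa, the hypoxia-inducible growth factor of blood vessels, did not pass in MC38 (-0.41 ± 0.17, adjusted p = 0.0942, limma) or MBT2 (0.54 ± 0.17, adjusted p = 0.0793, limma), but its effects differed between the models (-0.95 ± 0.26, adjusted p = 0.0310, limma). Of 10 further genes of oxygen sensing, the ubiquitin ligase genes Siah1a (-0.38 ± 0.11) and Siah2 (-0.39 ± 0.13), named after their values were seen, fell in MC38. Epas1, which encodes HIF-2 alpha and is abundant in endothelium, rose (0.99 ± 0.25, adjusted p = 0.0151, limma). Epas1 in MBT2 differed by 0.20 ± 0.12 (adjusted p = 0.295, limma). Of 24 nuclear genes for mitochondrial oxidation, 6 fell in MC38 and none rose (median -0.19). The largest were Sdha, a subunit of succinate dehydrogenase (-0.49 ± 0.12), Mdh2, mitochondrial malate dehydrogenase (-0.40 ± 0.13), and Atp5a1, a subunit of ATP synthase (-0.33 ± 0.10). In MBT2 none of these 3 lists held a call, with medians of 0.19, 0.03 and -0.12.

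Levels in untreated tumours differed between the 2 models in most members. In baseline tumours, 24 of the 36 genes were higher in MC38 than in MBT2 and 3 were lower, where 32.9% of 13360 genes were higher and 34.9% lower. The median difference was 0.82, against -0.03 over all genes. P4ha2 had the largest, with 130, 119 and 172 FPKM in MC38 and 1.84, 2.13 and 5.97 in MBT2 (5.14 ± 0.34, adjusted p = 1.84e-05, limma). Car9 was at 55.6, 49.6 and 63.3 FPKM in MC38 and 2.03, 1.59 and 4.04 in MBT2 (4.06 ± 0.24, adjusted p = 1.25e-05, limma). Egln3 was at 55.7, 52.2 and 58.0 FPKM in MC38 and 3.45, 2.42 and 9.67 in MBT2 (3.37 ± 0.38, adjusted p = 0.000219, limma). In all 3 genes the third MBT2 tumour was the highest of its group and still far below every MC38 tumour.

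Bnip3 was higher in MC38 baseline tumours by 2.06, Slc16a3 by 1.61, Slc2a1 by 1.54, Gapdh by 1.34, Car12 by 1.27, Pgam1 by 1.26, Pfkl by 1.22 and Kdm3a, a histone demethylase that needs oxygen, by 1.18. Of the glycolytic enzymes 10 of 15 were higher, and Hk1, the hexokinase of most tissues, was lower (-0.29 ± 0.08, adjusted p = 0.0183, limma), though higher by 0.23 in isotype tumours. Adm, which encodes the vasodilator peptide adrenomedullin, went strongly the other way, with 1.15, 1.30 and 1.04 FPKM in MC38 and 53.1, 36.4 and 54.1 in MBT2 (-4.48 ± 0.17, adjusted p = 1.82e-06, limma). Pfkfb4 was also lower in MC38, at 4.55, 4.58 and 4.49 FPKM against 9.84, 11.1 and 9.59 (-1.01 ± 0.10, adjusted p = 0.000119, limma). The models did not overlap for 24 higher and 3 lower members, against 35.5% and 37.9% of genes. In isotype tumours 31 members were higher in MC38 and 2 lower (Adm and Pfkfb4), against 30.9% and 36.6% of 12982 genes, but there the models stand in different blocks of sample numbers, which cannot be told apart from the model.

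**Figure D4:**
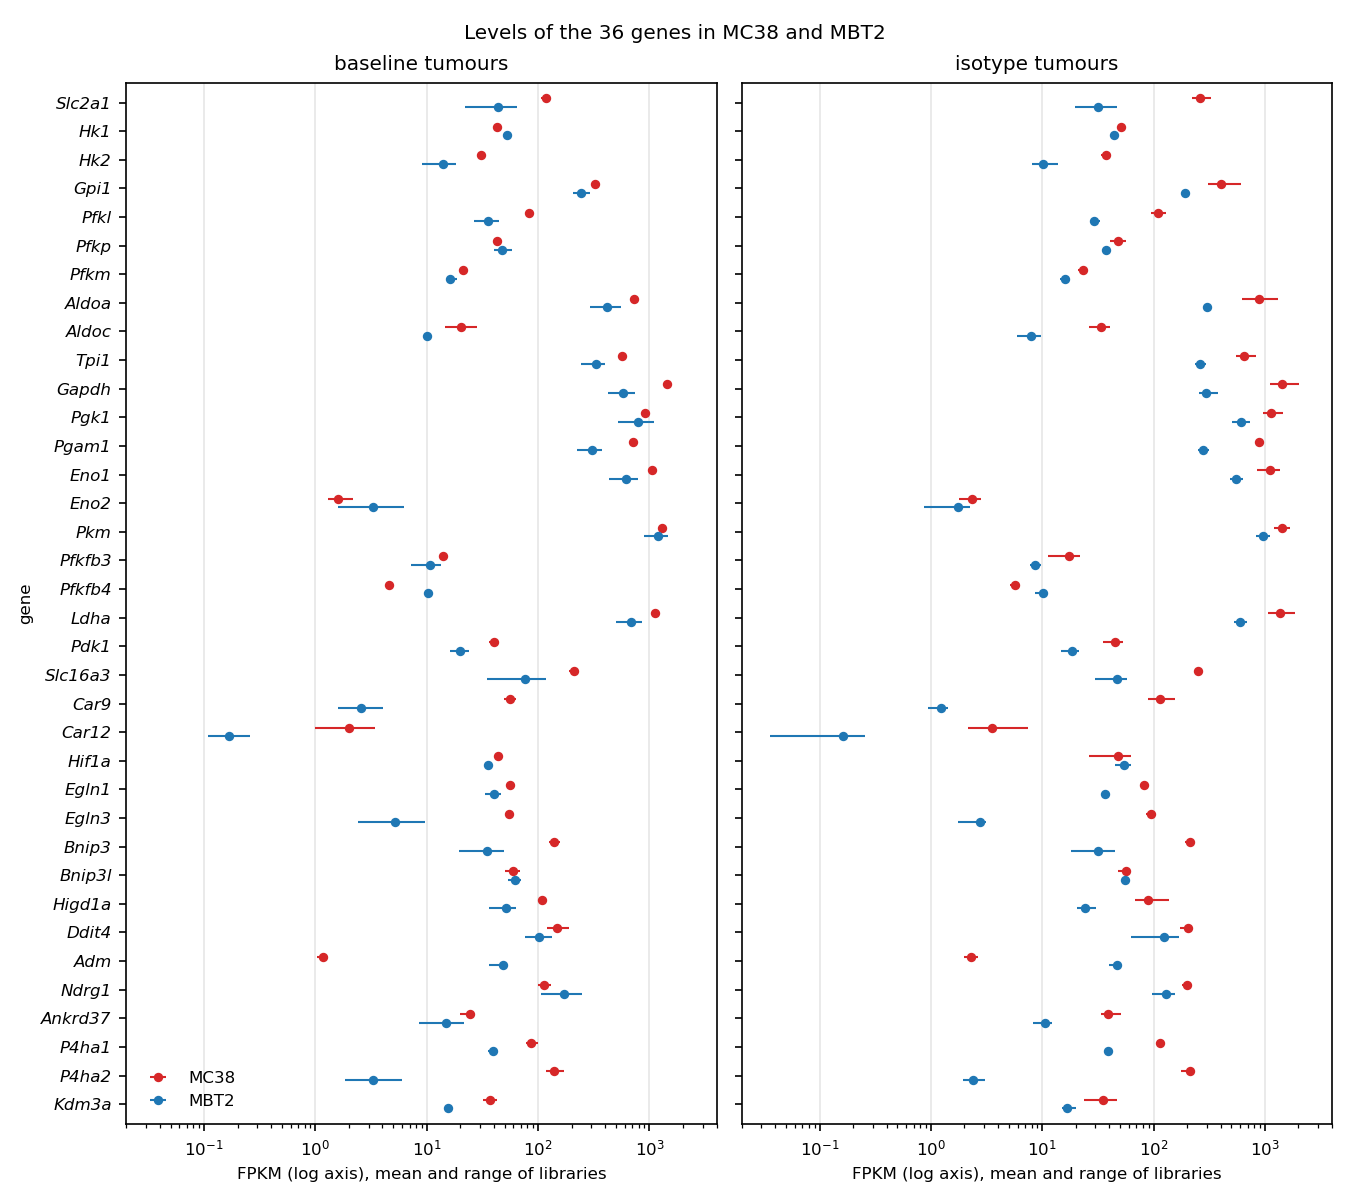
Level (FPKM, log axis) of the 36 genes in MC38 and MBT2, in 3 baseline and 5 isotype libraries each, with points at group means and bars from the lowest to the highest library. MC38 is to the right for most genes, by the most in P4ha2, Car9 and Egln3, and to the left for Adm and Pfkfb4.

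Over all 11 models, B16F10 isotype tumours had the highest mean of 15 of the 36 genes and MC38 of 7. The counts in this paragraph cover the members only. No share over all genes was computed for them, so they are descriptions of level. In B16F10 the glycolytic enzymes led. Gapdh averaged 3771 FPKM there against 1433 in MC38, the second, and Aldoa, Tpi1, Eno1, Pkm, Ldha, Gpi1 and Pfkl also did not overlap with the second model. MC38 led for Slc2a1, Bnip3, Egln1, P4ha1, P4ha2, Ddit4 and Higd1a, and of these P4ha2 alone did not overlap with the second model (211 against 39.4 FPKM in EMT6). MBT2 was the lowest for 14, among them Slc2a1 at 31.6 FPKM, Bnip3 at 31.9 and Car9 at 1.24. The widest spans between the highest and lowest model were in Car12 (37.8 FPKM in EMT6 and 0.161 in MBT2), Car9 (142 in B16F10 and 1.24 in MBT2) and P4ha2 (211 in MC38 and 2.41 in MBT2). The narrowest was in Bnip3l, from 37.5 FPKM in B16F10 to 75.7 in EMT6. The share of all FPKM taken by the 36 genes was 3.29% to 5.98% in B16F10 libraries and 0.876% to 1.58% in MBT2.

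As a mean over the 11 models, muDX400 raised 3 members and lowered none in limma (7 members had an unadjusted p under 0.05), where 14.5% of 16187 genes rose and 8.57% fell. The share of members that rose was not above that of all genes. The 3 were Pfkfb3, Pfkfb4 and Pfkp, and the other phosphofructokinase members, Pfkl and Pfkm, did not rise. Pfkl differed by 0.02 ± 0.04 (adjusted p = 0.831, limma) and Pfkm by -0.12 ± 0.05 (adjusted p = 0.0594, limma). Pfkfb3 rose by 0.39 ± 0.06 (adjusted p = 2.7e-06, limma) and was higher in 8 of 11 models, Pfkfb4 by 0.16 ± 0.05 (adjusted p = 0.0170, limma) in 6 of 11, and Pfkp by 0.13 ± 0.04 (adjusted p = 0.0109, limma) in 9 of 11. Pfkfb3 passed with each model left out in turn. Pfkp was lost without MC38, MBT2 or CM3 and in 3 of 5 fits without a replicate number, and Pfkfb4 without MC38, CM3 or RENCA and in 3 of 5. Without MC38 1 member remained, and without B16F10 there were 5.

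Outside MC38 and MBT2 a single member passed within a model. Hk2, the inducible hexokinase, rose in RENCA from 13.1, 12.9, 16.3, 15.96 and 14.7 FPKM to 23.2, 21.9, 28.2, 26.0 and 18.9, without overlap (0.65 ± 0.14, adjusted p = 0.0337, limma), where 2.28% of 12664 genes rose and 0.284% fell. Groups did not overlap for 3.58% of genes higher and 1.36% lower. It did not pass in 6 of 10 fits with a library left out, without a filter or with a replicate block. Pfkfb3 in RENCA, at 15.1, 18.3, 15.9, 11.0 and 13.9 FPKM with isotype and 21.0, 21.3, 36.5, 28.9 and 18.9 with muDX400, did not overlap either but did not pass (0.71 ± 0.20, adjusted p = 0.0909, limma). In CM3 the treated tumours held Pfkfb3 at 32.2 to 38.6 FPKM and the isotype tumours at 10.4 to 36.2 (0.97 ± 0.28, adjusted p = 0.179, limma). In isotype replicates 2 and 3 of CM3, the libraries with the high totals, Pfkfb3 was lowest, at 11.8 and 10.4 FPKM, while Gapdh was highest, at 1701 and 2077 against 597 to 717 in the other 3.

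No member passed in 4T1, B16F10, CM3, CT26, EMT6, LL2, MB49 or TC1 in limma, where 0 to 15 members had an unadjusted p under 0.05, the most in CT26. The background of calls was 0.339% in CT26 and 0.0802% in TC1 and 0% in the other 6. Signs were lopsided in several. In CT26 33 of 36 members were positive (median 0.28), in TC1 33 of 36 (median 0.14) and in MB49 30 of 35 (median 0.16). In 4T1 33 of 36 were negative (median -0.09) and in EMT6 31 of 36 (median -0.08). CM3 had 20 positive members and a median of 0.06, which became -0.10 with median-ratio scaling, so its direction depends on scaling. Members vary together within a library, so these counts are descriptions.

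**Figure D5:**
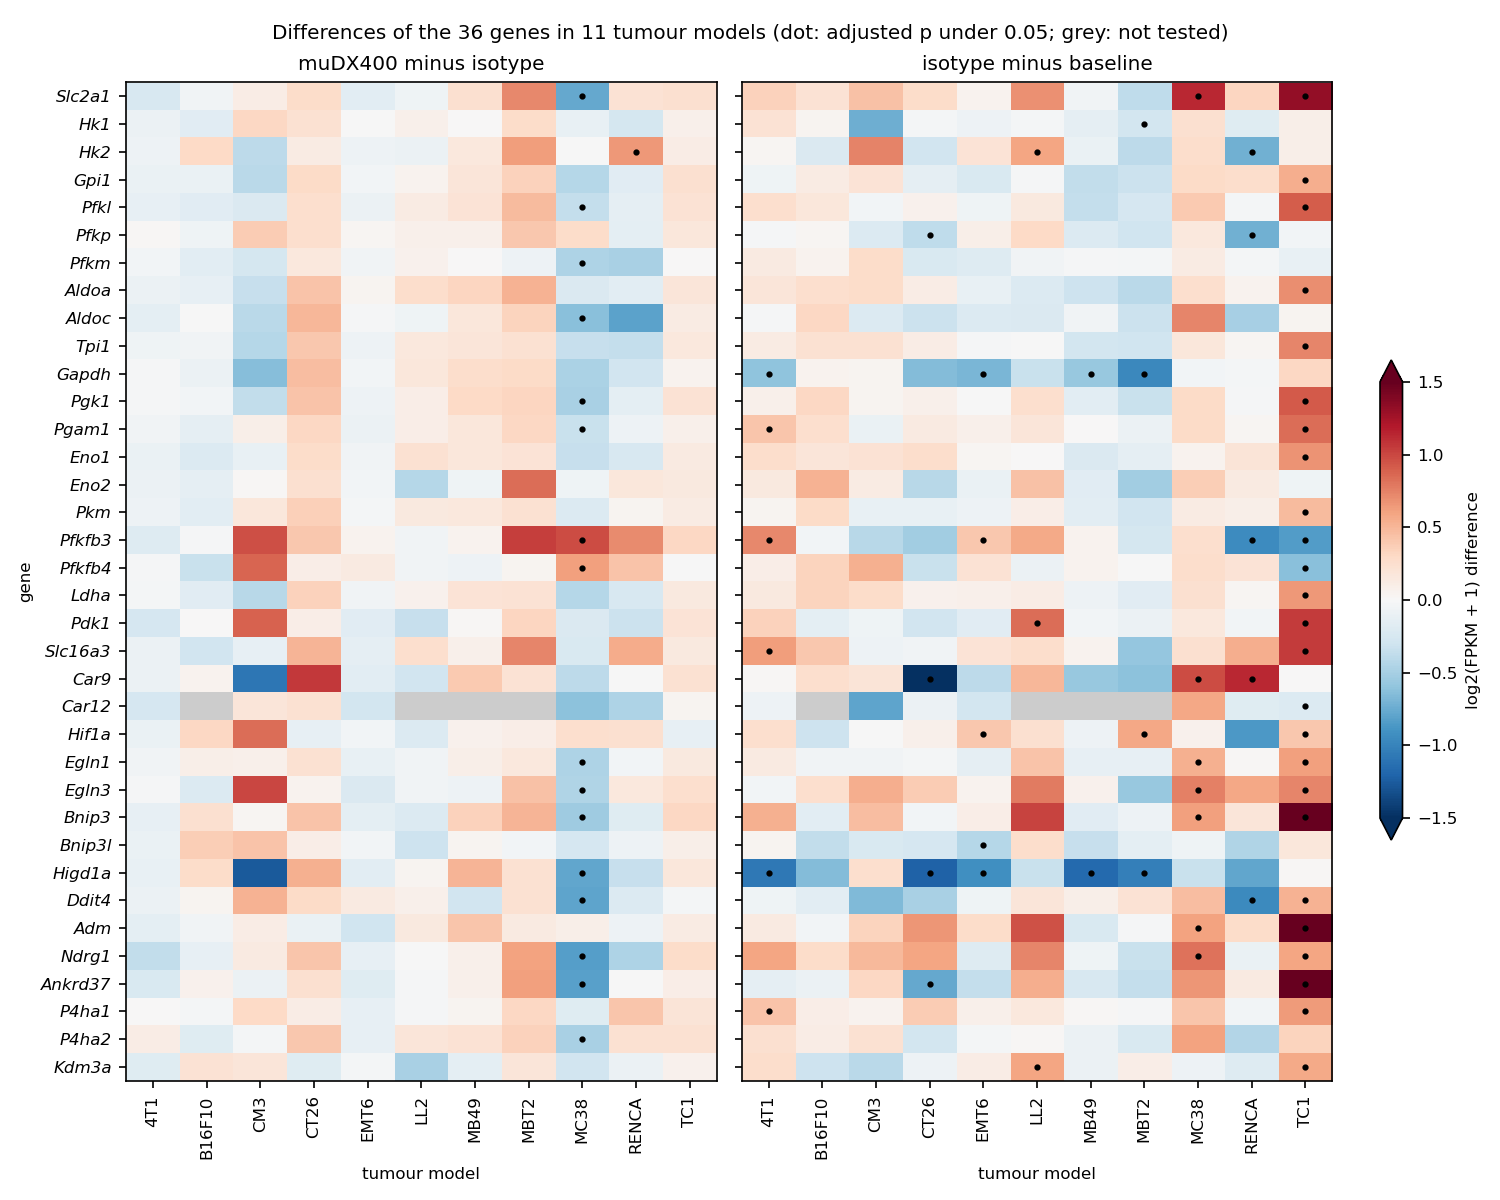
Difference of each of the 36 genes (log2(FPKM + 1), red higher, blue lower) in 11 models, for muDX400 minus isotype on the left and isotype minus baseline on the right. Both panels use the same isotype libraries with opposite sign, dots mark an adjusted p under 0.05, and grey marks genes under the expression minimum. MC38 is the blue column with dots on the left and TC1 the red column with dots on the right.

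Isotype tumours at 8 days were compared with baseline tumours to see how these genes stood as tumours grew under the control antibody. The comparison shares the isotype libraries with the treatment comparison, with opposite sign, so the values are set side by side only. Growth below is short for isotype against untreated baseline, in which time and injection of the control antibody cannot be told apart. In MC38 7 members rose and none fell, where 1.4% of 12968 genes rose and 1.86% fell. Slc2a1 rose most, from 129, 117 and 107 FPKM at baseline to the isotype values given above (1.13 ± 0.14, adjusted p = 0.00294, limma), and its treated tumours ranged from 123 to 224 FPKM. Car9 rose by 0.98 ± 0.19 (adjusted p = 0.0228, limma), Ndrg1 by 0.82 ± 0.12 (adjusted p = 0.00871, limma) and Egln3 by 0.76 ± 0.10 (adjusted p = 0.00341, limma). Bnip3, Adm and Egln1 rose by 0.53 to 0.62. Higher groups without overlap were seen in 16 members, against 6.1% of genes, and lower ones in 0, against 8.69%. The baseline and isotype libraries of MC38 stand in different blocks, which cannot be told apart from growth. The count was 2 without baseline replicate 1 or 2 and 4 without isotype replicate 1.

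In MBT2 most members were lower in this comparison of arms, whose interval is not known in either model. The 2 models were not tested against each other here. Of 35 members 32 were lower in isotype than in baseline tumours (median -0.27, against -0.06 over all genes), and 3 fell and 1 rose, where 11.8% of 12779 genes fell and 10.7% rose. Higd1a fell from 52.9, 36.6 and 63.8 FPKM to 21.3, 23.0, 26.0, 20.4 and 30.3 (-1.02 ± 0.18, adjusted p = 0.00606, limma). Gapdh fell from 584, 427 and 734 FPKM to 262, 272, 304, 255 and 378 (-0.96 ± 0.18, adjusted p = 0.00774, limma), and Hk1 by 0.27. Hif1a rose from 37.2, 36 and 33.1 FPKM to 62.9, 54.5, 48.1, 44.7 and 58.3 (0.58 ± 0.11, adjusted p = 0.00784, limma). Arms did not overlap for 1 higher and 4 lower members, against 13.1% and 16.9% of genes. Among the members, neither the shares called nor the shares without overlap were above those of all genes. Baseline replicate 2 had the lowest mean level of the members, 5.23 against 5.53 and 5.88, and without it 15 members passed as lower. These libraries too stand in different blocks.

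TC1 had the most growth calls, with 22 members higher and 3 lower, against 9.92% and 27.1% of 13068 genes. Bnip3 rose from 22.9, 39.7 and 37.7 FPKM to 109, 180, 78.3, 161 and 109 (1.87 ± 0.26, adjusted p = 0.000439, limma). Adm rose from 8.71, 8.12 and 7.24 FPKM to 22.0, 55.9, 17.3, 45.6 and 29.2 (1.83 ± 0.31, adjusted p = 0.00137, limma). Ankrd37 rose by 1.62, Slc2a1 by 1.32, and Slc16a3 and Pdk1, whose product holds pyruvate from the mitochondria, by 1.05 each. Pfkfb3 (-0.84), Pfkfb4 (-0.62) and Car12 (-0.21) fell. In TC1 the baseline libraries held 34.7 M to 37.2 M fragments against 17.4 M to 19.95 M fragments with isotype and stood in another block, so depth, block and growth cannot be told apart.

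Baseline and isotype libraries share a block in B16F10 and RENCA. Their depth differed as in TC1, with 34.7 M to 45.8 M fragments at baseline against 18.6 M to 21.4 M with isotype in B16F10, and 37.2 M to 42.8 M against 16.2 M to 18.6 M in RENCA, so depth and growth cannot be told apart there. In B16F10 no member passed in limma (2 with an unadjusted p under 0.05), where 0.0084% of 11901 genes rose and 0.924% fell. In RENCA Car9 rose, from 1.91, 3.004 and 4.32 FPKM to 8.43, 7.62, 6.57, 10.5 and 5.98 (1.13 ± 0.24), and Hk2, Pfkp, Pfkfb3 and Ddit4 fell, by 0.72 to 0.95, where 1.76% of 13317 genes rose and 8.25% fell. None of these 4 falls passed with median-ratio scaling, which shifted the median of all genes by 0.20. In 4T1 Pfkfb3, Slc16a3, P4ha1 and Pgam1 rose by 0.41 to 0.73 and Higd1a and Gapdh fell, against 4.61% of genes higher and 10.7% lower. In EMT6 Hif1a and Pfkfb3 rose and Higd1a, Gapdh and Bnip3l, a relative of Bnip3, fell (2.92% and 7.69%). Brackets here give the shares of all genes higher and lower, in this order. In LL2 Pdk1, Hk2 and Kdm3a rose by 0.59 to 0.84 (11.3% and 15.8%). In CT26 Car9, Higd1a, Ankrd37 and Pfkp fell by 0.38 to 1.63 (4.4% and 19%). The shares of members called in LL2 and CT26 were below those of all genes. In MB49 Higd1a and Gapdh fell (0.22% and 1.67%). In CM3 no member passed in limma, and 5 had an unadjusted p under 0.05 (0.107% and 0.267%). Higd1a was among those that fell in 5 models, 4T1, CT26, EMT6, MB49 and MBT2, and Gapdh in 4 of them, all but CT26. In these 5 models baseline and isotype libraries stand in different blocks, which cannot be told apart from growth. In B16F10 and RENCA, Gapdh differed by 0.05 and -0.03 and Higd1a by -0.65 and -0.78, and none passed.

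As a mean over the 11 models, 11 members were higher in isotype than in baseline tumours and 4 lower, where 4.12% of 16879 genes were higher and 25.5% lower. Adm (0.44 ± 0.11), Slc2a1 (0.40 ± 0.08), Bnip3 (0.40 ± 0.09), Egln3 (0.32 ± 0.08) and Ndrg1 (0.31 ± 0.08) rose most. Higd1a (-0.66 ± 0.10, adjusted p = 1.16e-07, limma) and Gapdh (-0.32 ± 0.07, adjusted p = 0.000342, limma) fell most. Without TC1 6 members were higher. Sample blocks differ between the arms in 9 of the 11 models, and depth differs as given above in B16F10, RENCA and TC1.

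The members also varied together between tumours of a group. Over the 110 libraries at 8 days, with each group's mean removed, Slc2a1 followed the mean of the other members most closely (Pearson's r = 0.92), before Ndrg1 (0.88), Egln1 (0.85), Pgk1 (0.82) and Ankrd37 (0.80). At the other end stood Pfkfb4 (-0.41) and Hif1a (-0.03), and Pfkfb3 was low at 0.26. Of 630 pairs of members 532 were positive, with a median of 0.36. Among 105 pairs of glycolytic enzymes 102 were positive, with a median of 0.49. These are descriptions across libraries that share depth, scaling and cell makeup, so they carry no p.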

How the data were processed

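Total RNA was sequenced after ribosomal RNA removal with a stranded kit, as paired reads of 50 bases, per the labels' protocols. The authors deposited 1 table of FPKM values for 143 libraries, and all its columns were used. The aligner, quantification and genome build were not given in the sources used here. Depth was estimated from the steps between low FPKM values, so it is approximate, and no count test was run. Values were taken to log2(FPKM + 1). Genes reaching an FPKM of 1 in 5 or more libraries (3 or more in comparisons with baseline) were fitted with limma 3.58.1 in R 4.3.3, with moderated variances that follow intensity. Tests were 2-sided, p-values were adjusted by Benjamini-Hochberg over every gene tested, and the threshold was 0.05. On simulated data with 5 libraries a group the procedure recovered 50.7% of changes of 0.5 (log2) and 85.1% of changes of 1 over 12635 genes for MC38, and 70.1% and 97% over 12476 genes for MBT2. It recovered 28.4% and 82.1% for the difference of the 2 effects, and 29.9% and 86.6% for baseline levels with 3 libraries a group. The simulated noise was independent between genes and few genes were changed, unlike in these data, so these shares may not hold here. Sums and plots used Python 3.11.15, pandas 2.3.3 and matplotlib 3.10.9.

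Within each model 5 muDX400 libraries were compared with 5 isotype libraries, and 5 isotype with 3 baseline libraries. Means over the models used 110 and 88 libraries. Groups come from the labels. The members and the gene lists were chosen with earlier results of these data known. Members that passed in MC38, or between MC38 and MBT2, were named, up to the 12 with the largest differences in a comparison, and up to 6 in each other model. From the lists of hypoxia-inducible and of mitochondrial genes the 3 largest passing differences were named, and Vegfa, Epas1, Cd8a and Mki67 whatever their values. Alternatives were a pseudocount of 0.1, no filter, median-ratio scaling, a replicate block, a spread shared by all models, and leaving out each library or model.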

Additional observations from a re-analysis of the deposited data

Results flagged for a closer look

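In 3 cases 1 library lay far from the other 4 of its group. The mean log2 level of the members was 5.79 in 4T1 muDX400 replicate 4, Ddit4 was at 171 FPKM in MC38 isotype replicate 3, and Slc2a1 was at 224 FPKM in MC38 muDX400 replicate 5. For the mean level 22 groups were examined, and 48 groups for single genes, where chance gives about 1 in 20.

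The effect of muDX400 differed between MC38 and MBT2, by a direct limma test of the difference, for 18 members. The difference of effects was -1.49 for Slc2a1, -1.43 for Ndrg1, -1.42 for Ankrd37, -1.04 for Bnip3, -1.01 for Higd1a and -0.96 for both Aldoc and Slc16a3. It was -0.89 for Egln3, -0.83 for both P4ha2 and Pfkl, -0.81 for Pgk1, -0.77 for both Gpi1 and Gapdh, -0.65 for Pgam1, -0.62 for Egln1, -0.49 for P4ha1 and -0.38 for Hk1. For Pfkfb4 it was 0.57.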

How the results depend on the processing

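Counts are members called, and medians are of the member differences. For muDX400, a shared spread gave 7 higher and 6 lower in CM3, 3 higher in MBT2, and 4 higher and 3 lower in RENCA, where the 1 higher member was lost (0) without a filter and with a replicate block. Median-ratio scaling turned the CM3 median to -0.10. In the mean over models, 5 were higher without B16F10 and 1 without MC38. Lower members were 1 with a replicate block, 2 without CM3, 2 without CT26 and 1 without LL2, and the median was -0.010 without MBT2. For MC38 minus MBT2, lower members were 8 without a filter and 8 with a replicate block, and higher members 0 without a filter, with scaling and with the block.

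For isotype against baseline, the replicate block gave 0 higher in MC38, 1 higher and 1 lower in 4T1, 9 lower in EMT6, 8 higher and 6 lower in LL2, 0 lower in MB49, and 0 higher and 0 lower in RENCA with a median of 0.054. A shared spread gave 3 higher in MC38, 0 higher and 1 lower in MBT2, 2 higher and 1 lower in 4T1, 2 higher and 2 lower in CM3, 0 higher and 0 lower in EMT6 and 1 lower in MB49. Without a filter there were 2 higher and 1 lower in 4T1, 1 lower in CT26, 1 higher in EMT6, 0 higher in LL2 and 0 lower in MB49. Scaling gave 1 higher and 2 lower in CT26 with a median of 0.088, 0 lower in RENCA with a median of 0.21, and 2 lower in the mean over models. That mean had 6 higher without TC1 and 2 lower without CT26, MBT2 or RENCA. Scaling moved the median of all genes by -0.14 in CM3 for muDX400, and for growth by 0.11 in CM3, 0.17 in CT26, 0.20 in RENCA and 0.12 in TC1.

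Leaving out 1 library gave, for muDX400, 0 to 7 higher and 0 to 4 lower in CM3 (median -0.0017 to 0.12), 0 to 8 higher in CT26, 0 to 11 higher in MBT2, 0 to 1 higher and 0 to 1 lower in RENCA, and medians of -0.13 to 0.0084 in EMT6 and -0.10 to 0.17 in LL2. MC38 minus MBT2 had 8 to 27 lower and 0 to 1 higher, and a baseline median of 0.61 to 0.99. The mean over models, without each replicate number, had 1 to 4 higher and 0 to 1 lower. For growth there were 2 to 9 higher and 0 to 1 lower in MC38, 2 to 15 lower in MBT2 (median -0.41 to -0.069), 0 to 1 higher and 0 to 7 lower in RENCA (median -0.077 to 0.082), and 5 to 10 higher and 2 to 4 lower in the mean. The causes were not tested. A replicate number is only a number here: the 5 same-numbered pairs of a model correlated at -0.67 to 0.64, and at most 3 of 5 exceeded 0.1. Depth is approximate.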
